A study of Drosophila melanogaster with 18 samples.

Results

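The RNAs described here are maternal RNAs that wild-type fly embryos cleared between the early nuclear divisions and cycle 14. At that stage they stood higher on average than in wild type both in embryos depleted of CBP and in embryos depleted of E(z). They were chosen by measured values, in CPM (a gene's estimated count divided by the sum of its library and scaled to a common total) averaged over the 3 libraries of each group. An RNA was a member if its wild-type level was at least 10 CPM before cycle 9 and at most 25% of that at cycle 14, if CBP-KD embryos kept at least 12.5% of their own early level, and if the CBP-KD level at cycle 14 was at least 2 times the wild-type level but under 2 times the E(z)-KD level. Of 16680 genes in the table, 5963 reached 10 CPM in wild type before cycle 9, 1481 of these were cleared to at most 25%, and 279 were members. The last condition left out 13 RNAs that otherwise qualified. Because the choice used the cycle 14 levels and the changes between stages, these are given below as a description without tests. Tests are given for the levels before cycle 9, which the rule used in part, and for RNAs that are not members.

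A fly egg is laid with a large store of RNA made by the mother, and transcription of the zygotic genome starts only after several rounds of nuclear division. Much of the maternal store is degraded in that period, first by maternally supplied factors such as the RNA-binding protein Smaug, which recruits the CCR4-NOT deadenylase, and later by products of the zygotic genome, including microRNAs of the miR-309 cluster. E(z) is the methyltransferase of Polycomb repressive complex 2 and deposits H3K27me3, and CBP, encoded by nej, is the acetyltransferase that deposits H3K27ac.

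The series holds 18 bulk RNA-seq libraries of hand-staged Drosophila melanogaster embryos, 3 per genotype and stage. The genotypes were wild type, written WT, and the knockdowns called CBP-KD and E(z)-KD, and the stages were before cycle 9 and cycle 14. Mothers of the knockdown embryos carried a TRiP short hairpin against E(z), or a hairpin against nej from a line made in the laboratory, under a maternal Gal4 driver that is active in the germ line during oogenesis. Depletion therefore started before fertilization. The WT embryos came from a control line of the same collection. Embryos were laid within 1 h at 25 °C, aged and staged by eye, and RNA was taken from whole embryos, so that fewer cells of a type and less RNA per cell cannot be told apart. The labels call the molecule nuclear RNA, whereas the titles and methods describe total RNA of whole embryos. A level also does not separate maternal transcripts that remained from new transcripts of the same gene.

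Library totals were between 6243486 and 18262569 estimated counts, the smallest being a WT library at cycle 14. The target of each knockdown was low in the libraries labelled for it. nej was at 1084, 1209 and 1137 CPM in WT before cycle 9 against 265, 276 and 218 CPM in CBP-KD, and at cycle 14 the means were 1952 and 597 CPM. E(z) was at 107, 100.3 and 106 CPM in WT before cycle 9 and at 0.0568, 0.271 and 0.223 CPM in E(z)-KD. At cycle 14 E(z) was at 33.0 CPM in WT, 4.77 CPM in E(z)-KD and 10.8 CPM in CBP-KD, so its level at that stage was low in both knockdowns. By edgeR's quasi-likelihood test the log2 fold change of E(z) in CBP-KD against WT at cycle 14 was -1.66 (SE 0.18, adjusted p = 6.13e-07).

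Before cycle 9 the 279 members made up a similar portion of the library in every genotype, 5.36 to 5.55% of all counts in WT, 5.43 to 5.49% in E(z)-KD and 5.54 to 5.57% in CBP-KD. At cycle 14 they had dropped to 0.677, 0.782 and 0.741% in the WT libraries, against 2.18, 1.94 and 1.98% in E(z)-KD and 1.90, 2.33 and 1.99% in CBP-KD. All 6 knockdown libraries lay above all 3 WT libraries, and the knockdowns overlapped each other. For the median member, 12.6% of the WT level before cycle 9 was left at cycle 14. The E(z)-KD embryos kept 32.5% of their own early level and the CBP-KD embryos 35.4%, with interquartile ranges of 20.7 to 49.1% and 22.0 to 51.9% over members. The medians of single libraries were 12.3 to 13.3% in WT, 30.9 to 34.8% in E(z)-KD and 32.6 to 39.9% in CBP-KD. The spread between replicates was small beside the gap to WT, but the choice of members by these levels built in that gap. Most members still fell between the stages in both knockdowns, and no rate of clearance was measured. Over 50% of the early level was kept by 82 members in CBP-KD and by 62 in E(z)-KD.

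**Figure D1:**
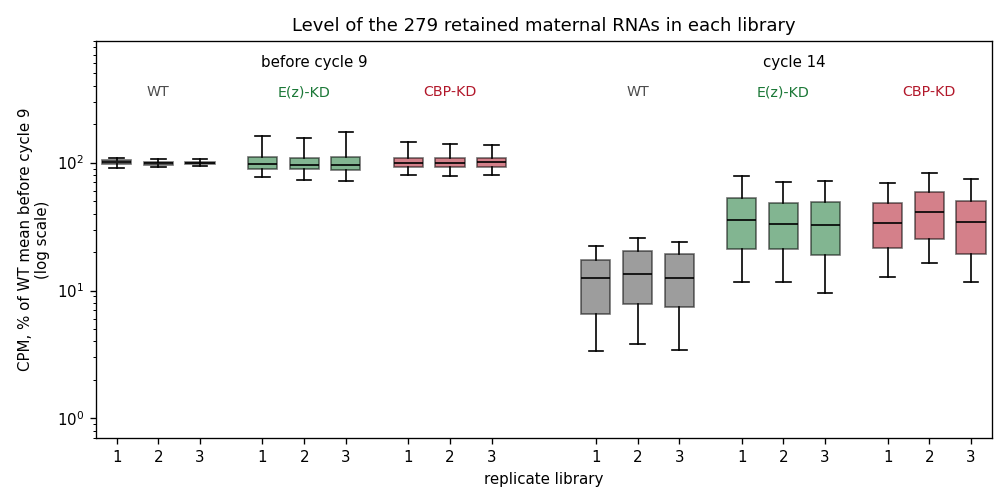
Levels of the 279 members in each of the 18 libraries, as CPM in percent of the WT mean before cycle 9 (log axis). Boxes span the quartiles with the median as a line, whiskers reach the 5th and 95th percentiles, and values of 0 are left out. The 3 WT libraries at cycle 14 have medians of 12.3 to 13.3% and the 6 knockdown libraries lie above them.

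The rule set the members apart from 1202 other RNAs that WT embryos cleared. For these the median share left was 11.8% in WT, 10.4% in E(z)-KD embryos and 11.1% in CBP-KD. In WT the members and these other cleared RNAs had thus lost similar portions, and they parted in the knockdowns, as the rule required. The cycle 14 ratio of CBP-KD to WT had a median of 2.76 over members (interquartile range 2.41 to 3.41) and 1.14 over the other cleared RNAs. A ratio of at least 2 was nevertheless reached by 125 of the other cleared RNAs in CBP-KD and by 149 in E(z)-KD. Of the 1481 cleared RNAs, 197 dropped at least 16-fold in all 3 genotypes, and 0 of these were members.

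A mean level in E(z)-KD above that in WT was fixed by the rule for every member, because CBP-KD had to be at least 2 times WT and under 2 times E(z)-KD. The size of the difference was not fixed. The ratio of E(z)-KD to WT at cycle 14 had a median of 2.62 (interquartile range 2.14 to 3.29), and 233 of the 278 members with a WT value above 0 reached 2. The ratio of CBP-KD to E(z)-KD had a median of 1.10, with 181 members higher on average in CBP-KD and 98 higher in E(z)-KD. All 3 CBP-KD libraries lay above all 3 E(z)-KD libraries for 71 members, against 27.4% of all genes tested, and the reverse held for 28 members, against 22.5%. The rule set lower limits on the CBP-KD level that it did not set on E(z)-KD, and held CBP-KD under 2 times E(z)-KD. Nothing is therefore read from the balance between the knockdowns. All 3 CBP-KD libraries lay above all 3 WT libraries at cycle 14 for 273 members, and all 3 E(z)-KD libraries did so for 267 members, where the background over all genes tested was 38.4 and 34.1%; the rule favoured both. Both knockdowns were compared with the same WT libraries.

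In the fit over 8467 genes, a call was an edgeR adjusted p under 0.05 with a log2 fold change of at least 1 in either direction. At cycle 14, 250 members were called higher and 0 lower in CBP-KD against WT, beside 12.0 and 15.2% of all genes, and 224 were called higher and 0 lower in E(z)-KD, beside 11.3 and 13.0%. Between stages, 277 members were called lower at cycle 14 in WT, 216 in E(z)-KD embryos and 221 in CBP-KD, beside 29.8, 26.5 and 27.6% of all genes. These counts follow from the rule in whole or in part and nothing is read from them. The scaling mattered for their size: with DESeq2's size factors the median log2 fold change of all genes at cycle 14 moved to -0.21 in E(z)-KD embryos and -0.16 in CBP-KD. With those factors the median ratios of the members were 2.29 and 2.37, and all 278 members with a ratio were still above 1 in both knockdowns.

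Other features of the embryos moved with these levels at cycle 14. The summed level of 10 zygotic blastoderm genes (eve, ftz, run, twi, sna, sog, slam, nullo, bnk and Sry-alpha) was 8416 to 10070 CPM in WT, 6379 to 7770 CPM in E(z)-KD and 3169 to 4479 CPM in CBP-KD, with no overlap between genotypes. Most of this sum was slam, at 5708 CPM in WT, 4608 CPM in E(z)-KD and 2376 CPM in CBP-KD, followed by Sry-alpha. The genes did not all move alike, since nullo was at 59.2 CPM in WT, 116 CPM in E(z)-KD and 77.1 CPM in CBP-KD, and bnk at 386, 504 and 252 CPM. The library with the lowest zygotic sum had the highest median share of the members left within each knockdown and the lowest within WT. RNAs of at least 10 CPM in WT before cycle 9 took 93.5 to 93.8% of the counts in WT at cycle 14, 96.0 to 96.4% in E(z)-KD and 97.9 to 98.5% in CBP-KD. The summed level of 8 follicle cell genes was 0.481 to 1.16 CPM in WT at cycle 14, 5.99 to 8.64 CPM in E(z)-KD and 3.90 to 5.80 CPM in CBP-KD, and 6, 5 and 0 of the 8 had no count there. Nearly all of this was Fas3, an adhesion molecule that other cells also make, at 0.546, 7.004 and 3.94 CPM. The yolk protein, vitelline membrane and chorion genes and dec-1 had means of at most 0.674 CPM in every genotype. The part of the zygotic genes, of embryo staging and of follicle cells in the members' levels was not tested.

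**Figure D2:**
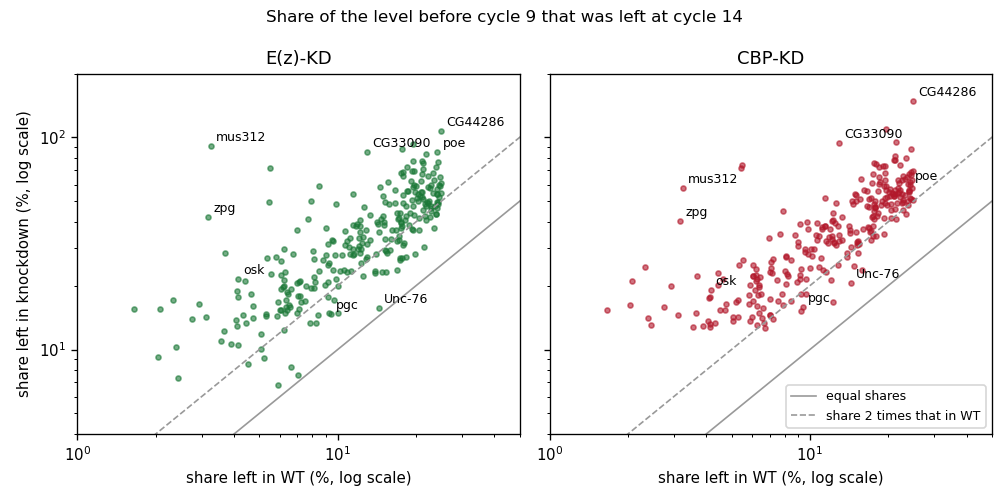
Share of the level before cycle 9 that was left at cycle 14 in E(z)-KD (left) and CBP-KD (right) against the share left in WT, 1 point per member, on log axes. The solid line marks equal shares and the dashed line a share 2 times that in WT; zpg and mus312 kept 3.18 and 3.25% in WT and over 40% in both knockdowns, and Unc-76 lies near the line of equal shares in E(z)-KD.

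Several members are RNAs of the germ plasm, the cytoplasm at the posterior pole that directs formation of the germ cells. osk encodes Oskar, which assembles the germ plasm, and lies at 8935126 to 8938395 on chromosome arm 3R (BDGP6.54). In WT it was at 1811, 1546 and 1576 CPM before cycle 9 and at 65.3, 71.8 and 67.9 CPM at cycle 14. At cycle 14 E(z)-KD libraries held 336, 309 and 305 CPM and CBP-KD libraries 299, 376 and 309 CPM. Every knockdown library was above every WT library, and the shares left were 4.16% in WT, 21.6% in E(z)-KD embryos and 19.2% in CBP-KD.

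zpg encodes a germ line gap junction protein, innexin 4, and its gene lies on arm 3L (6604366 to 6606032). It was among the 6 members with the highest ratios in each knockdown. In WT it fell from 305, 290.4 and 304 CPM to 10.1, 8.42 and 10.1 CPM. At cycle 14 it was at 109.9, 116 and 106 CPM in E(z)-KD and 101, 117 and 114 CPM in CBP-KD, 11.6 times the WT mean in both. The knockdown libraries overlapped each other and stood far above WT.

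gcl, which encodes germ cell-less, a substrate adaptor needed for pole cell formation, was at 85.0, 96.9 and 88.5 CPM in WT at cycle 14. It was at 189, 172 and 160.1 CPM in E(z)-KD and 192, 223 and 203 CPM in CBP-KD, with all CBP-KD libraries above all E(z)-KD libraries. pgc, whose product holds transcription silent in pole cells, changed less, with shares left of 9.44% in WT, 14.7% in E(z)-KD embryos and 15.9% in CBP-KD. The RNAs of spir and capu, a pair of actin nucleators that act together in the oocyte, left 20.1 and 8.49% in WT, 59.3 and 23.5% in E(z)-KD, and 55.1 and 26.5% in CBP-KD.

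Other genes with germ plasm or germ line roles were no members. Of 27 genes on a list chosen by germ plasm or germ line function, 18 were cleared in WT and 6 were members (osk, gcl, pgc, zpg, spir and capu). Of the 21 others, 4 were called higher (orb, aret, del and rhi) and 1 lower (Tdrd3) in E(z)-KD at cycle 14, and 3 higher (orb, ovo and CycB) and 1 lower (Tdrd3) in CBP-KD, beside 11.3 and 13.0% of all genes in E(z)-KD and 12.0 and 15.2% in CBP-KD. Before cycle 9, 1 of the 21 was called higher in E(z)-KD and 0 lower, beside 7.44 and 2.1% of all genes. It was rhi, at 47.6 CPM against 19.7 CPM in WT, and WT did not clear it. The log2 fold changes of orb at cycle 14 were 1.70 (SE 0.12, adjusted p = 4.49e-09) in E(z)-KD and 1.62 (SE 0.12, adjusted p = 5.29e-09) in CBP-KD by edgeR. nos, the posterior determinant, was cleared from 1027 to 72.0 CPM in WT and stood at 85.9 CPM in E(z)-KD and 120.4 CPM in CBP-KD. Hsp83, a chaperone RNA that is protected in the germ plasm and degraded elsewhere, was cleared from 3922 to 203 CPM in WT and was lower still in the knockdowns, at 158 and 127 CPM. For Hsp83 edgeR gave log2 fold changes of -0.38 (SE 0.14, adjusted p = 0.0254) in E(z)-KD and -0.73 (SE 0.14, adjusted p = 0.000233) in CBP-KD, which did not reach the fold threshold.

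**Figure D3:**
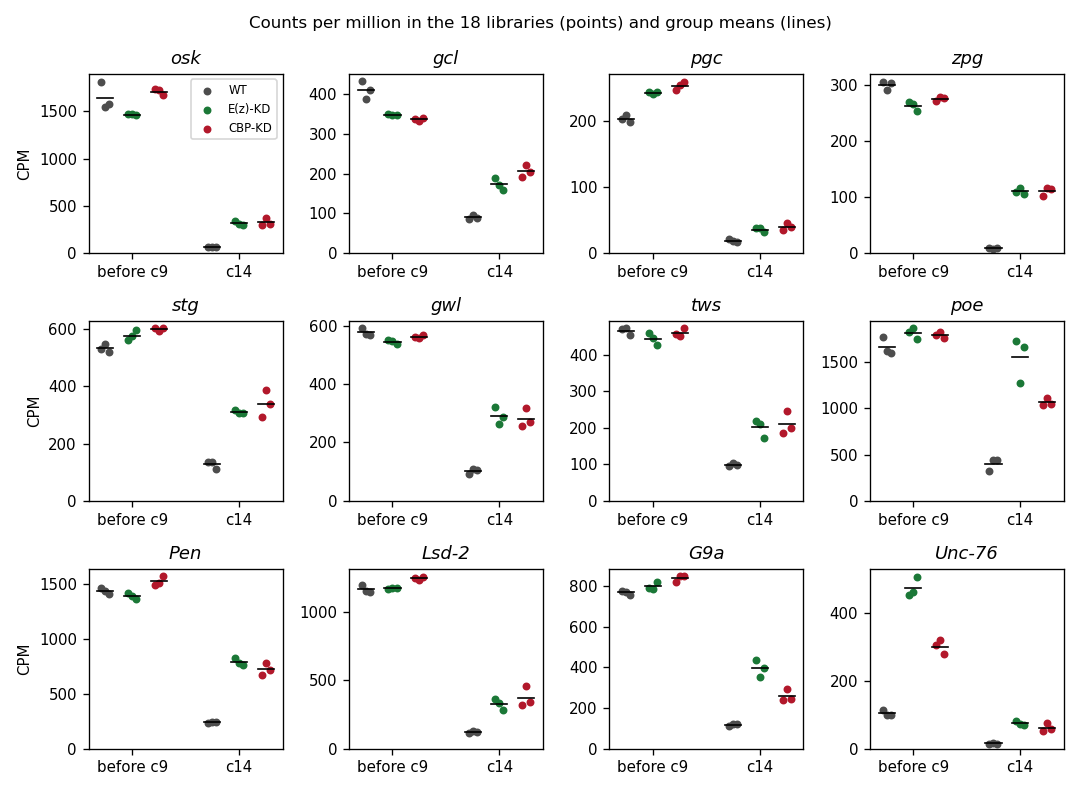
CPM of 12 members in the 18 libraries, with 3 points per group and a line at the group mean, on linear axes from 0. osk, zpg, stg and the other RNAs shown drop in every genotype between the stages and are higher in both knockdowns than in WT at cycle 14; Unc-76 is also higher in both knockdowns before cycle 9.

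Regulators of the early divisions were also among the members. stg encodes the Cdc25 phosphatase String, whose maternal RNA is degraded when the syncytial cycles end and which is transcribed again in patterns at cycle 14 (3R, 29251826 to 29255800). In WT it was at 532, 549 and 519 CPM before cycle 9 and at 136, 138 and 111 CPM at cycle 14. At cycle 14 it was at 319, 308 and 306 CPM in E(z)-KD and at 292, 389 and 338 CPM in CBP-KD. The lowest knockdown library held over 2 times the highest WT library, and the knockdowns overlapped.

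gwl encodes Greatwall, the mitotic kinase that holds PP2A in check, and tws encodes the B55 subunit of that phosphatase. gwl left 17.9% in WT, 53.4% in E(z)-KD embryos and 50.0% in CBP-KD, and tws left 21.3, 45.3 and 45.9%. The checkpoint kinase genes grp (Chk1) and tefu (ATM) left 13.0 and 19.5% in WT. They left 31.4 and 93.6% in E(z)-KD and 34.8 and 63.3% in CBP-KD. The values of grp were not whole numbers in most libraries, and its exons overlap those of squ on the same strand.

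Myt1 and ald stood lower in E(z)-KD than in CBP-KD. Myt1, an inhibitory kinase of Cdk1, was at 3.84, 5.23 and 6.18 CPM in WT at cycle 14, at 8.64, 7.45 and 7.59 CPM in E(z)-KD and at 17.1, 17.4 and 12.0 CPM in CBP-KD, with its 3 groups apart. ald, the Mps1 kinase of the spindle checkpoint, stood 1.56 times above WT in E(z)-KD and 2.56 times in CBP-KD. For both genes all CBP-KD libraries were above all E(z)-KD libraries. The list of syncytial cell cycle genes held 51 genes of the table, of which 17 were cleared in WT and 6 were members. Of its 45 other genes, 4 were called higher in CBP-KD (twe, CycB, cort and png) and 0 lower at cycle 14, and 1 was called higher (png) and 1 lower (Sas-4) in E(z)-KD. The shares over all genes were 12.0 and 15.2% in CBP-KD and 11.3 and 13.0% in E(z)-KD.

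RNA-binding proteins and regulators of translation and RNA decay were represented as well. cup encodes the eIF4E-binding repressor of osk and nos RNA, Fmr1 the fragile X protein, and Capr the Caprin homologue that works with it. Capr was at 193, 223 and 206 CPM in WT at cycle 14, against 495, 431 and 462 CPM in E(z)-KD and 427, 471 and 441 CPM in CBP-KD. cup left 21.1% in WT, 55.3% in E(z)-KD embryos and 53.2% in CBP-KD, and Fmr1 left 17.6, 40.1 and 41.3%. cup shares exons with CG34310 on the same strand and its values were not whole in any library.

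muskelin, a subunit of the CTLH ubiquitin ligase that degrades maternal repressors such as Cup in early embryos, left 12.2% in WT, 38.3% in E(z)-KD embryos and 33.3% in CBP-KD. egl, an adaptor that links localized RNAs to dynein, was one of the 28 members with every E(z)-KD library above every CBP-KD library. It was at 84.3, 73.9 and 77.5 CPM in E(z)-KD, 44.1, 64.1 and 44.2 CPM in CBP-KD and 18.7, 21.6 and 22.1 CPM in WT at cycle 14.

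Of 48 genes in the table on a list of clearance and repression factors, 5 were members (cup, muskelin, osk, egl and Fmr1). Among the 43 others, 6 were called higher and 0 lower in E(z)-KD at cycle 14 (smg, eIF-4E, png, orb, CG32364 and aret). In CBP-KD 4 were called higher (smg, png, orb and CG32364) and 2 lower (Not11 and RanBPM). Over all genes 11.3% were called higher and 13.0% lower in E(z)-KD, and 12.0 and 15.2% in CBP-KD, so the higher calls on the list were near the background. smg, which encodes Smaug, was no member because 1541 of 3504 CPM was left in WT, and it stood at 3694 CPM in E(z)-KD and 3913 CPM in CBP-KD. Its log2 fold change at cycle 14 was 1.25 (SE 0.09, adjusted p = 4.43e-09) in E(z)-KD and 1.30 (SE 0.09, adjusted p = 2.02e-09) in CBP-KD by edgeR. Before cycle 9 smg was at 3509 CPM in E(z)-KD and 3675 CPM in CBP-KD, and the changes against WT were 0.02 (adjusted p = 0.939) and 0.18 (adjusted p = 0.124). Of the 43 others, 1 was called higher and 0 lower in E(z)-KD before cycle 9, beside 7.44 and 2.1% of all genes. It was CG32364, at 32.5 CPM in E(z)-KD and 2.30 CPM in CBP-KD against 2.35 CPM in WT at that stage.

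The most abundant members before cycle 9 were poe, osk, Pen, Pxt, Lsd-2, Capr, G9a and Vha55. poe encodes a very large ubiquitin ligase, Purity of essence. It was at 324, 443 and 440.3 CPM in WT at cycle 14, at 1727, 1276 and 1666 CPM in E(z)-KD and at 1036, 1116 and 1044 CPM in CBP-KD. Its 3 groups did not overlap, with E(z)-KD the highest and 85.7% of the early level left there against 59.4% in CBP-KD.

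G9a, a histone H3K9 methyltransferase, had the same order, with 109, 119 and 123 CPM in WT, 434, 352 and 399 CPM in E(z)-KD and 239, 295 and 246 CPM in CBP-KD. Pen, an importin alpha, left 16.6% in WT, 56.7% in E(z)-KD embryos and 47.3% in CBP-KD. Lsd-2, a perilipin on lipid droplets, left 10.4, 27.9 and 29.8%, and Vha55, a subunit of the vacuolar proton pump, left 22.5, 50.3 and 54.2%. Pxt, a cyclooxygenase-like peroxidase, had the lowest ratios of the 8, at 2.12 in CBP-KD and 1.91 in E(z)-KD.

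A total of 65 members were placed in 9 groups by known function after their values had been seen, and the groups are described by their medians. The share left in WT was between 9.44% (germ plasm and germ line, 7 genes) and 21.1% (translational control and RNA binding, 5 genes). In E(z)-KD the medians were between 29.05% (lipid and energy metabolism, 11 genes) and 54.8% (centromere and kinetochore, 3 genes), and in CBP-KD between 27.0 and 53.2%. The median ratio of CBP-KD to WT, which the rule held at 2 or more, was between 2.41 and 2.94. The 3 kinetochore genes cal1, Cenp-C and Spc105R left 51.0 to 56.3% in CBP-KD and 52.0 to 59.9% in E(z)-KD. Among the 12 chromatin and transcription factor genes, which include CTCF, Hira, RYBP, Rfx and Hr78, the share left in CBP-KD was between 13.7% (Hr78, a nuclear receptor) and 80.2% (Rfx).

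**Figure D4:**
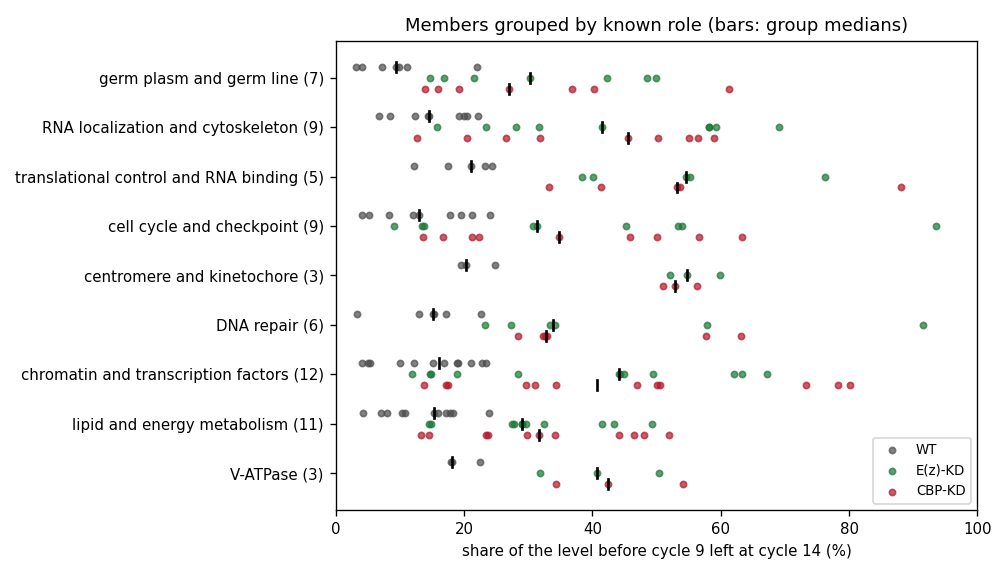
Share of the level before cycle 9 left at cycle 14 for 65 members in 9 groups by known role, with 1 point per gene and genotype and black bars at the group medians. The number of genes is in parentheses; in each group the WT median lies to the left of both knockdown medians.

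The largest ratios to WT were found in RNAs that WT embryos reduced to a few CPM. mus312, a scaffold of structure-specific DNA repair nucleases, was at 0, 2.01 and 2.005 CPM in WT at cycle 14, at 53.1, 50.5 and 70.0 CPM in E(z)-KD and at 39.7, 39.4 and 18.7 CPM in CBP-KD. Its ratios, 43.2 in E(z)-KD embryos and 24.3 in CBP-KD, rest on estimates that were not whole in 94.4% of libraries, and it shares exons with CG42307. CG5568, which shares exons with CG18586, was at 5.45, 6.10 and 5.80 CPM in WT, 52.8, 55.2 and 49.7 CPM in E(z)-KD and 90.2, 103 and 98.5 CPM in CBP-KD. In both genes every knockdown library was far above WT, but the division of reads between the overlapping genes could not be checked.

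CG6567 and CG33090 gave whole-number values. CG33090 was at 16.7, 21.9 and 20.0 CPM in WT at cycle 14, at 154, 162 and 156 CPM in E(z)-KD and at 163, 200.4 and 200.4 CPM in CBP-KD, so that 85.1 and 93.7% was left in the knockdowns against 12.9% in WT. CG6567 left 5.49% in WT, 71.8% in E(z)-KD embryos and 74.2% in CBP-KD. CG6180 varied more between libraries, with 14.7, 41.1 and 25.6 CPM in E(z)-KD and 42.2, 22.9 and 46.9 CPM in CBP-KD against 3.68, 4.43 and 2.95 CPM in WT.

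In total 28 members share exons with another gene on the same strand, and 23 had values that were not whole in over 20% of libraries. For some of these the estimate switched between a value and 0 among replicates. CG33649, which overlaps DNApol-gamma35, was listed at 0 in all 3 CBP-KD libraries before cycle 9 and in 2 of 3 CBP-KD libraries at cycle 14, so it has no share left in CBP-KD. CG42511 was at 0 counts in all 3 WT libraries at cycle 14 and in 1 of 3 CBP-KD libraries. Against a floor of 3 counts per WT library, its CBP-KD mean was 20.2-fold higher. That floor covers counting error only and not the division of reads between genes.

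The levels before cycle 9 were compared between genotypes as well. The rule did not use a ratio at that stage, but it used the WT and CBP-KD levels in its limits, so that a high early WT level or a low early CBP-KD level eased entry. The tests are therefore not independent of the choice, and only the early E(z)-KD level was outside the rule. The median ratio to WT over members was 0.961 in E(z)-KD embryos and 0.998 in CBP-KD, and the median log2 fold changes were -0.04 and 0.11, beside -0.00069 and 0.09 over all genes tested. In E(z)-KD 7 members were called higher and 0 lower, or 2.51% of members, beside 7.44 and 2.1% of all genes tested and 2.13 and 1.44% of the 5963 RNAs with at least 10 CPM in WT. In CBP-KD 4 were called higher and 1 lower, or 1.43 and 0.358% of members, beside 7.51 and 2.42% of all genes and 1.14 and 1.36% of those 5963. The shares called higher were near those among the 5963 RNAs. E(z)-KD against CBP-KD gave 2 called higher, CG9650 and CG33649, and 0 lower, beside 4.71 and 3.96%, and 117 members had an unadjusted p under 0.05 there. DESeq2 gave 6 higher and 1 lower, 4 higher and 1 lower, and 2 higher and 0 lower in the same 3 comparisons. The fall in CBP-KD was that of CG33649, which is listed at 0 there and met the limit on the CBP-KD share for that reason. With no lower limit on the fold, E(z)-KD had 51 members higher and 36 lower than WT at an adjusted p under 0.05, beside 18.5 and 15.5% of all genes. In the same way CBP-KD had 68 higher and 12 lower, beside 24.1 and 7.42%, and E(z)-KD against CBP-KD 18 higher and 53 lower, beside 9.02 and 19.1%. These counts were near or below the background. By library size alone, the median log2 fold change of all genes was -0.0039 in CBP-KD against WT, beside 0.09 in the main fit. For E(z)-KD against CBP-KD it was -0.0010, beside -0.096 in the main fit. The counts with no lower limit on the fold were not repeated with library size alone.

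Of the 8 members called higher before cycle 9 in a knockdown, 3 were called in both (Unc-76, CG3356 and AcCoAS), 4 in E(z)-KD alone and 1, bam, in CBP-KD alone. Both comparisons share the WT libraries. Unc-76, an adaptor of the motor kinesin, was at 115, 100.0 and 98.8 CPM in WT, 453, 462 and 506 CPM in E(z)-KD and 305, 319.6 and 279 CPM in CBP-KD. Its log2 fold changes by edgeR were 2.20 (SE 0.11, adjusted p = 1.13e-10) and 1.64 (SE 0.11, adjusted p = 7.33e-09). Since the share left at cycle 14 was 14.4% in WT, 15.8% in E(z)-KD embryos and 20.5% in CBP-KD, Unc-76 entered with a higher starting level and was cleared in E(z)-KD to nearly the same extent as in WT.

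CG3356, a protein-coding gene, was at 229, 213 and 211 CPM in WT before cycle 9, at 716, 733 and 774 CPM in E(z)-KD and at 490.1, 507 and 444 CPM in CBP-KD, and all 3 groups were apart. The log2 fold changes were 1.78 (SE 0.08) and 1.25 (SE 0.08), with edgeR adjusted p of 6.1e-11 and 8.54e-09. AcCoAS, which makes acetyl-CoA from acetate, had log2 fold changes of 1.02 (SE 0.10, adjusted p = 7.99e-07) in E(z)-KD and 1.72 (SE 0.10, adjusted p = 3.43e-09) in CBP-KD. bam, a germ line differentiation factor, rose by 1.13 (SE 0.08, adjusted p = 3.87e-08) in CBP-KD, and its change of 0.77 in E(z)-KD was under the fold threshold.

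CG9650 was called in E(z)-KD and not in CBP-KD, and the knockdowns differed when tested against each other. It was at 10.4, 10.9 and 10.1 CPM in WT before cycle 9, at 281, 272 and 276 CPM in E(z)-KD and at 14.8, 15.5 and 14.1 CPM in CBP-KD. The log2 fold change in E(z)-KD was 4.73 (SE 0.15, adjusted p = 9.33e-13) against WT and 4.13 (SE 0.15, adjusted p = 8.23e-12) against CBP-KD. At cycle 14 it was at 66.2, 46.2 and 70.0 CPM in E(z)-KD, 22.0% of its early level there and 71.8 times the WT mean, the highest such ratio among members. CG3077, AGBE (a glycogen branching enzyme) and Pex13 (a peroxisomal import protein) were also called higher in E(z)-KD before cycle 9, with log2 fold changes of 1.29, 1.21 and 1.17.

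The share left takes the level before cycle 9 into account. Over members the share left in CBP-KD was a median 2.8 times that in WT (277 members with a ratio, interquartile range 2.35 to 3.42), and it was under 1.5 times for 3, AcCoAS, Unc-76 and Desat1. In E(z)-KD the median was 2.61 (278 members), and 9 were under 1.5, with CG7878 the lowest at 1.08. Over the other cleared RNAs the medians were 1.19 and 1.12. The share was above that in WT for every member with a ratio in both knockdowns, which the choice by the cycle 14 ratio largely fixed.

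Members also differed in the structure of their transcripts, which the rule did not use. The annotation held 275 of the 279. The median 3′ UTR of the canonical transcript was 456 nt in members, 257 nt in the other cleared RNAs and 279 nt over all genes tested. The coding length was 1719, 1455 and 1425 nt, the number of exons 5, 4 and 4, and the length of the gene 4364, 2619 and 2884 nt. When the 1460 cleared RNAs with a coding sequence were ranked by 3′ UTR length and divided in 4 equal groups, members made up 8.22, 15.3, 22.5 and 29.3% from the shortest to the longest. By coding length the shares were 14.2, 16.2, 19.2 and 25.8%. The difference in 3′ UTR length held on both sides of the median coding length, with 405 nt in members against 223 nt in the other cleared RNAs of shorter coding sequence, and 477.5 against 299 nt in those of longer coding sequence.

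Level before cycle 9 moved with membership too: ranked by WT CPM, the 4 groups of cleared RNAs held 11.3, 12.4, 27.0 and 24.6% members. A longer transcript gives more counts at the same number of molecules, and the part of level and length in these shares was not tested. The median ratio of CBP-KD to WT over the cleared RNAs, members or not, was 1.06, 1.26, 1.46 and 1.63 from the shortest to the longest 3′ UTRs, and that of E(z)-KD to WT was 0.955, 1.21, 1.32 and 1.59. The members were spread over the genome, with 56 on 2L, 61 on 2R, 42 on 3L, 59 on 3R, 56 on X and 1 on chromosome 4.

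**Figure D5:**
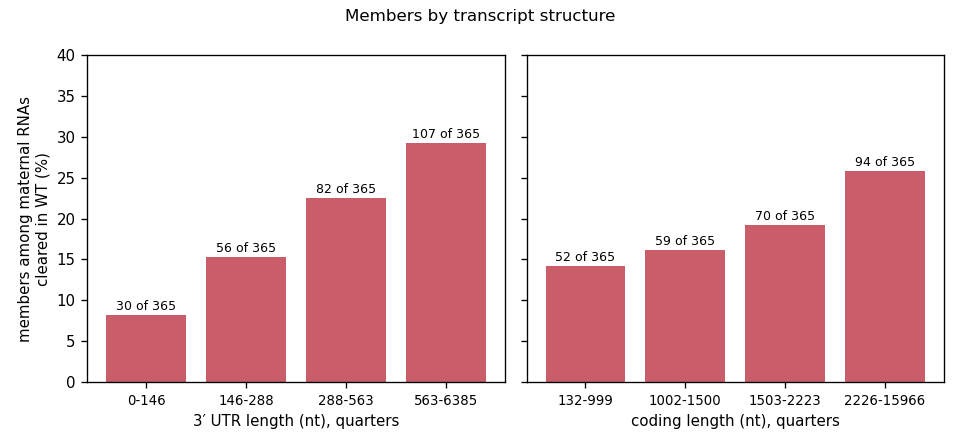
Members as a percentage of the maternal RNAs cleared in WT, divided in 4 equal groups by 3′ UTR length (left) or coding length (right) in nt, with the number of members and of RNAs above each bar. The share is 8.22% in the group with the shortest 3′ UTRs and 29.3% in that with the longest.

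Values near the limits of the rule show how narrowly some RNAs were in or out. At the limit on the WT level, CG33649 and CG9650 were inside at 10.1 and 10.5 CPM, and CG3032 and CG5285 outside at 8.77 and 8.14 CPM. At the limit on WT clearance, CG8195 and CG44286 had both 24.9% left, and CG42558 and CG14408 had 25.05 and 25.2%. At the limit on the share left in CBP-KD, egl and nmdyn-D6 were inside at 12.7%, and CG3608 and CG4238 outside at 12.4%. For the ratio of CBP-KD to WT, CG17726 (2.004) and CG6966 (2.01) were inside and Acox57D-d and CG32221 (both 1.99) outside. For that of CBP-KD to E(z)-KD, Myt1 and olf186-M (both 1.96) were inside, and Cep97 (2.04) and CG8089 (2.05) outside.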

How the data were processed

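The authors mapped reads with STAR to dm6 and deposited estimated counts per gene and library, without normalization or pooling. How counts that are not whole were made is not given in the sources used here (2.9% of values are off a whole number by over 0.01). ERCC spike-ins were added but not used here, so levels are relative. Members were found from CPM. Rounded counts entered edgeR 4.0.16 under R 4.3.3: TMM, filterByExpr, a quasi-likelihood fit of 6 group means over all 18 libraries, Benjamini-Hochberg adjustment over 8467 genes. Library totals ran from 6243486 to 18262569 counts; 3 counts correspond to 0.164 to 0.481 CPM, which covers counting error only. P-values are for differences between group means, set against the spread between libraries of the same group as estimated over all 18 libraries. The 3 libraries of a group were called biological replicates by the submitters.

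Lists and members were chosen with earlier results of these data known. Named genes were nej and E(z), the 8 most abundant members, the 6 with the highest cycle 14 ratio in each knockdown, up to 4 with the largest called change in each direction before cycle 9, members on the 3 pathway lists, and 2 on each side of each limit; others were picked after their values were seen. Of 279 members 229 matched current symbols of Ensembl release 115 (BDGP6.54), 46 older names and 4 none. Alternatives were DESeq2 1.42.0, other scalings and filters, a fold threshold of none, a replicate block and leaving out each library. On simulated counts for the comparison of E(z)-KD with WT before cycle 9, 99 of 100 genes changed by 1.5 and 100 of 100 changed by 2 (log2) were recovered. The changed genes were drawn from those with a mean of at least 10 CPM before cycle 9. The counts were simulated with the spread estimated in the same fit, so the recovery does not cover lower RNAs or other kinds of spread. It also does not cover changes close to the fold threshold, since both simulated sizes lay above it. Sequence and GC content were not analysed here. Tables were made with pandas 2.3.3 on Python 3.11.15, and figures with matplotlib 3.10.9.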

Additional observations from a re-analysis of the deposited data

Results flagged for a closer look

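CG44286 rose between the stages in CBP-KD and fell in WT, with no overlap between stages in either genotype. It was at 31.1, 29.0 and 26.6 CPM before cycle 9 and at a mean of 42.8 CPM at cycle 14 in CBP-KD, against 29.1, 25.1 and 25.1 CPM and then 0.673, 5.56 and 13.5 CPM in WT. The difference between genotypes was not tested. CG44286 shares exons with CG8788 on the same strand and its values were not whole in any library.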

How the results depend on the processing

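The number of members was 279 with CPM, 237 with TMM-scaled CPM and 181 with DESeq2 size factors, and 235 and 181 of these were among the 279. Leaving out 1 library gave 236 (without CBP-KD cycle 14 replicate 2) to 306 members. With DESeq2 size factors the median share left became 15.3% in WT, 35.0% in E(z)-KD embryos and 35.4% (as before) in CBP-KD; leaving out a library gave 12.5 to 12.8% in WT, 31.1 to 33.3% in E(z)-KD and 33.2 to 36.5% in CBP-KD. Before cycle 9, having no fold threshold raised the members called from 7 to 87 in E(z)-KD against WT, from 5 to 80 in CBP-KD against WT and from 2 to 71 in E(z)-KD against CBP-KD, beside 34.0, 31.5 and 28.1% of all genes. Requiring 10 counts in every sample left 0 calls in the last comparison, because CG9650 and CG33649 were then not tested. Leaving out a library gave 7 to 8, 4 to 5 and 1 to 2 calls in these comparisons; without CBP-KD replicate 1 or 3 only CG9650 was called in the last. The fall of CG33649 in CBP-KD was no longer called without any of the 3 CBP-KD libraries in turn. With a replicate block the counts were 7, 5 and 2 and no call was lost, but same-numbered libraries did not all correlate above 0.1, so the numbers were not taken to pair samples. Low RNAs at cycle 14 are limited by the smallest WT library, in which 3 counts are 0.481 CPM.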
